A study of Gallus gallus with 16 samples.

Results

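The integrated stress response genes and tRNA synthetases described here are 31 of the 23910 genes counted in chicken COVCAR ovarian cancer cells. They were taken from a list of 39 symbols, of which 8 matched no symbol in the count table and were skipped (ATF5, DDIT3, NUPR1, TRIB3, PPP1R15A, PHGDH, SHMT2 and CBS). WARS1, IARS1 and LARS1 were matched under a symbol with a final 1. All 31 genes passed the filter on low counts in every comparison. The list holds a group of 4 genes (the transcription factors ATF4, CEBPB and CEBPG, and the enzyme CHAC1) and 3 genes of eIF2 and its kinases. Another 4 are grouped as growth arrest and secreted stress genes (DDIT4, SESN2, STC2 and the receptor VLDLR). The others are 6 enzymes of asparagine, serine, one-carbon and cysteine synthesis, and 14 genes of tRNA charging and export.

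COVCAR cells are primary cells from the ascites of laying hens (Leghorn, Hy-Line W-36) that had developed ovarian cancer at an age past peak laying. The study asked how metformin, a biguanide drug against diabetes, changes the transcriptome of these cells. Each of 4 lines (C5, C7, C9 and C11, from 4 hens) was treated for 24 h with 0 mM (control), 0.5 mM, 1 mM or 2 mM metformin, at about 200000 cells per the labels. One RNA library was sequenced per line and dose, which gave 16 libraries and 4 libraries per dose. All groups, the control included, were kept in serum-free medium with bovine insulin and human epidermal growth factor on ultra-low attachment plates. C5, C7 and C9 were at passage 3 and C11 was at passage 2. Line and hen cannot be told apart. The spread between libraries of 1 dose holds differences between hens together with those between cultures and libraries.

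In the integrated stress response, kinases such as PERK (EIF2AK3) and GCN2 (EIF2AK4) phosphorylate the alpha subunit of the initiation factor eIF2 (EIF2S1) under endoplasmic reticulum stress or amino acid shortage. General translation then slows while the mRNA of ATF4, a transcription factor, is translated more. In mammals ATF4 raises the transcription of amino acid transporters, enzymes of asparagine, serine and cysteine synthesis, and cytosolic tRNA synthetases, which join amino acids to their tRNAs. Metformin inhibits complex I of the respiratory chain, and mitochondrial inhibition is a known trigger of this response in mammalian cells.

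Libraries held between 34724071 and 42531887 counts, and the lowest count of a member was 13, for ALDH1L2 in C9 at 2 mM. Levels are given in CPM, the count of a gene relative to the library's total after TMM scaling. The keratin KRT7 averaged 522 CPM over the 16 libraries, whereas the epithelial markers EPCAM and CLDN3 averaged 0.124 and 0.0339 CPM, the cadherin CDH1 2.48 CPM (0.451 to 7.09) and the keratin KRT18 5.83 CPM (0.242 to 28.7). The 10 fibroblast markers summed to 27031 CPM or more in each library, led by FN1 at 25544 CPM on average. The cells were labelled as ovarian endometrioid adenocarcinoma, and EPCAM and CLDN3 were near 0 in them while CDH1 was low. In these bulk libraries, fewer cells of a type and less RNA per cell cannot be told apart.

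The library of untreated C7 stood apart for these genes. It was the highest of all 16 libraries for 19 of the 31 members (61.3%), and for 15.2% of all genes that passed the filter. Among the control libraries it was the highest for 21 members (67.7%), against 28.6% of all genes. Over the members, its median difference from the mean of the other 3 controls was 0.98 on the log2 scale, and over all genes it was −0.17. This library also had the most negative slope of expression on gene length of the 16 (−0.29 log2 units per doubling of exonic length, where the highest was 0.26) and the highest summed epithelial markers (877 CPM). Its sums of fibroblast (58787 CPM), T cell (170 CPM) and macrophage (106 CPM) markers lay within the ranges of the controls. Its endothelial (11.8 CPM) and erythroid (0.0606 CPM) sums were the lowest of the 16 libraries. All 8 erythroid markers and 6 of the 8 endothelial markers averaged under 1 CPM, so these sums lie near the floor or rest on few genes. The epithelial sum was mostly KRT7, which reached 864 CPM. The length slope enters some of the fits below as a covariate. The part of the marker sums and of the number of genes with a count in the results was not tested.

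Per kilobase of exon, ATF4 had the highest control level of the members, with a median of 739 CPM per kilobase (range 665 to 1775, n = 4 lines). DDIT4 followed with 413 (79.5 to 695) and CEBPB with 373 (168 to 567). SARS, HARS, AARS, ASNS and GARS had medians from 86.5 to 111 CPM per kilobase. EIF2AK4 (4.26, range 2.72 to 9.02) and ALDH1L2 (0.976, range 0.204 to 3.87) were lowest. The order is loose, since each gene's range over the 4 lines overlapped that of the next gene. Relative to its level, the range was narrow for EIF2S1 (43.1 to 51.7) and CEBPG (25.1 to 31.5), and wide for CHAC1 (7.41 to 256), ALDH1L2 and PSPH (3.48 to 64.8).

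**Figure D1:**
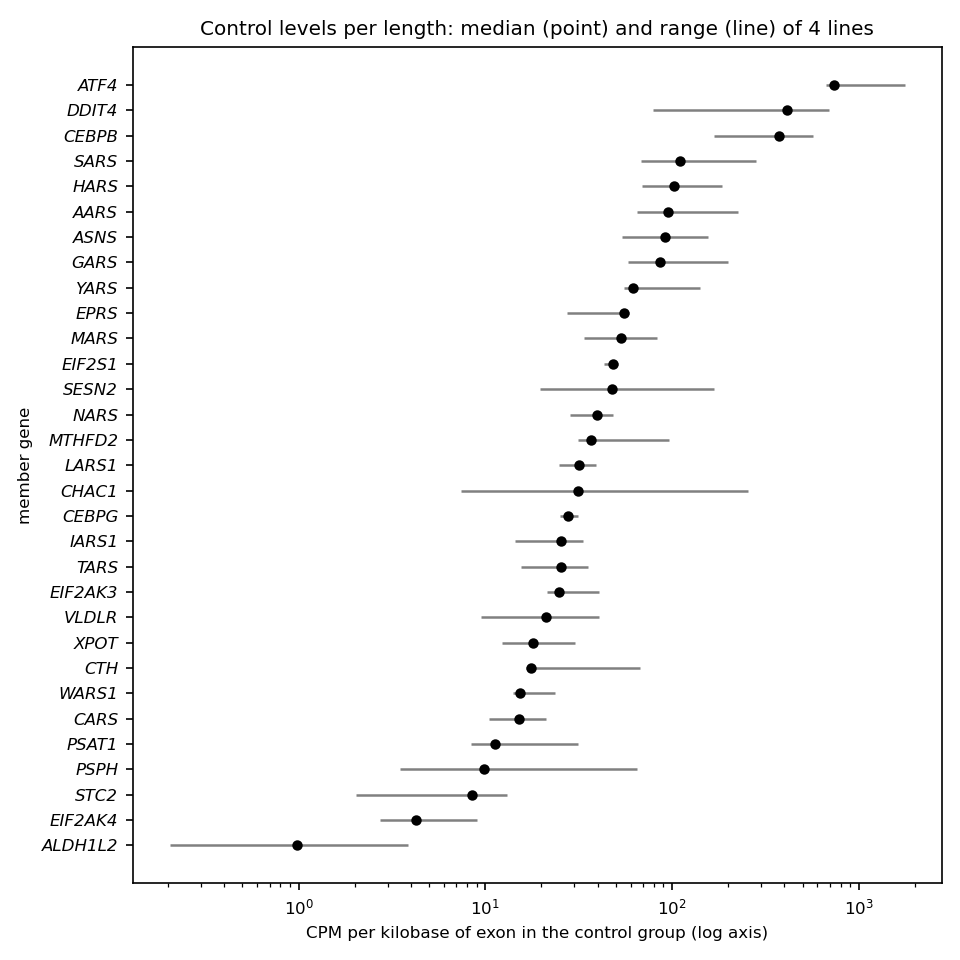
Levels of the 31 genes in the 4 control libraries, as CPM per kilobase of exon on a log axis, with points at the medians and lines over the lowest to highest of 4 cell lines. ATF4 stands at 739, the synthetases lie between 15.1 and 111, and ALDH1L2 is lowest at 0.976.

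The excess in untreated C7 ran through some groups of genes and not through others. All 6 biosynthetic enzymes were highest of the 16 libraries there, with a median difference of 1.77 on the log2 scale from the other controls. PSPH, which makes serine from phosphoserine, was 8.38-fold above the mean of the other 3 controls. ALDH1L2, a mitochondrial folate enzyme, was 5.34-fold and CTH, the cystathionine lyase that yields cysteine, 3.89-fold above it. CHAC1, which degrades glutathione and is a classic ATF4 target, was 10.9-fold above it, and ATF4 itself 2.48-fold. Of the 14 genes of tRNA charging and export, 9 were highest among the controls in C7, led by SARS (2.92-fold above the other 3), AARS (2.67-fold), GARS (2.59-fold) and YARS (2.37-fold). NARS, CARS, WARS1 and XPOT, the exporter of tRNA from the nucleus, were below the mean of the other controls there (0.674-fold, 0.607-fold, 0.783-fold and 0.557-fold). None of the 3 genes of eIF2 and its kinases was above that mean in C7.

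**Figure D2:**
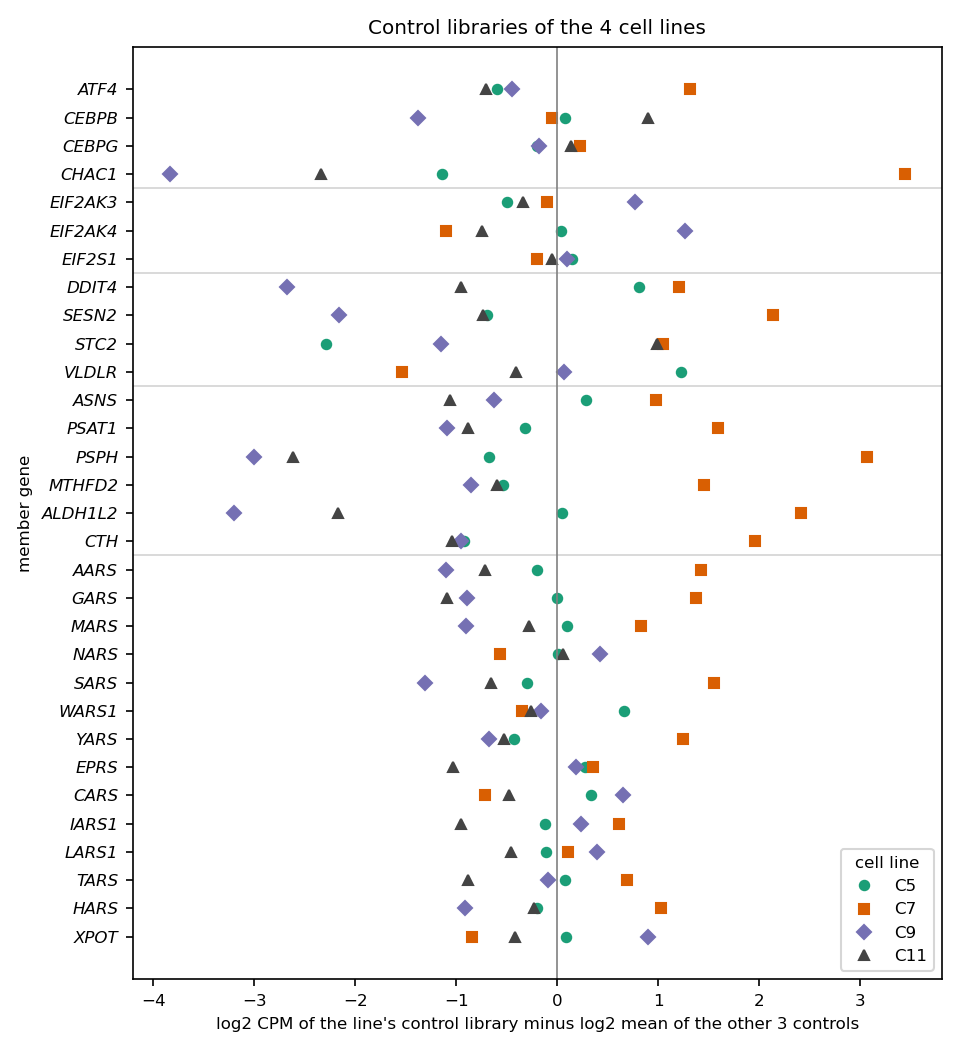
Each control library against the mean of the other 3 controls, in log2 CPM, for the 31 genes (rows) and 4 cell lines (symbols). The C7 squares lie to the right for 22 genes, furthest for CHAC1 (3.44) and PSPH (3.07), and to the left for VLDLR (−1.54) and EIF2AK4 (−1.10).

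With metformin, most members were lower than in the control, and none met the criteria of a differentially expressed gene (p under 0.01 and adjusted p under 0.05, edgeR's quasi-likelihood test with Benjamini-Hochberg adjustment over all genes). That holds for 0.5, 1 and 2 mM, where 0% of all genes were called as well. DESeq2 called 0 members at 0.5 mM (0% of all genes), PSAT1 at 1 mM (0.159%) and 0 members at 2 mM (1.92%). At an unadjusted p under 0.05, 7 members were lower at 0.5 mM (CEBPG, CHAC1, SESN2, PSAT1, PSPH, MTHFD2 and CTH) and 0 higher, where 0.743% of all genes were lower and 0.353% higher. At 1 mM 5 members were lower by that measure (CHAC1, PSAT1, ALDH1L2, CTH and IARS1) and 0 higher, against 1.66% and 3.11% of all genes. At 2 mM 5 were lower (CHAC1, PSAT1, ALDH1L2, CTH and WARS1) and 1 higher (VLDLR), against 5.61% and 5% of all genes. DESeq2 gave 8, 6 and 5 members lower at p under 0.05 at the 3 doses (1.32%, 2.01% and 5.81% of all genes), and 0, 0 and 1 higher (0.605%, 3.38% and 4.61%).

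These counts moved with the control of C7 and with the cell line. Without that library, 2 members were lower at p under 0.05 at 0.5 mM (MTHFD2 and PSAT1), 2 at 1 mM (CTH and PSAT1) and 1 at 2 mM (WARS1), against 0.501%, 1.06% and 4.61% of all genes, and 0 were higher (0.214%, 2.3% and 4.24%). Without the 2 mM library of C5 or of C9, 0 were lower at 2 mM, and without the control of C9 14 were lower at 0.5 mM. For these fits the share of all genes was not counted. A replicate block for the cell line left 2 members lower at 0.5 mM (CTH and MTHFD2), 8 at 1 mM and 7 at 2 mM (0.616%, 6.46% and 11.2% of all genes), and 0, 2 (CEBPB and VLDLR) and 1 (VLDLR) higher (1.07%, 8.24% and 12.1%). It called 0 members at each dose, and 0% of all genes. One fit of all 16 libraries with the block and the length slope gave 6 lower and 0 higher at 0.5 mM (2.1% and 2.86% of all genes), 11 and 1 at 1 mM (9.21% and 12.9%), and 6 and 1 at 2 mM (12.9% and 14.8%). This fit called 0 members at 0.5 mM, CHAC1 at 1 mM (0.177% of all genes), and CHAC1, CTH, WARS1 and VLDLR at 2 mM (10.3%). Estimates below 0 numbered 24 of 31 at 0.5 mM, 26 at 1 mM and 23 at 2 mM, against 49.8%, 50.3% and 49.4% of all genes. The median log2 fold change of the 31 members was −0.50 at 0.5 mM, −0.39 at 1 mM and −0.31 at 2 mM, beside medians of 0.0024, −0.0026 and 0.0067 over all genes. Leaving out untreated C7, 25, 22 and 20 members were below 0 at these doses (49.1%, 51.5% and 50.9% of all genes), and their median was −0.17, −0.23 and −0.060, beside 0.0050, −0.015 and −0.012 over all genes. Within lines, the members' median difference from the line's own control at the same doses was −1.23, −1.08 and −0.55 in C7. In C5 it was −0.21, −0.28 and −0.35, in C9 −0.11, −0.023 and −0.13, and in C11 −0.023, −0.15 and −0.11. The median lay further below 0 in C7 than in the other lines at each dose.

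The direction was shared by all 4 lines for a subset of members. Lower in every line were 9 of 31 members at 0.5 mM (29%, against 5.58% of all genes), 12 at 1 mM (38.7% against 13.9%) and 10 at 2 mM (32.3% against 16.9%). Higher in every line were 0 members at 0.5 mM, 2 at 1 mM (CEBPB and EIF2S1) and 1 at 2 mM (VLDLR), against 5.52%, 16.4% and 19.2% of all genes. PSAT1, CHAC1, CTH, CEBPG, HARS and MTHFD2 were lower in all 4 lines at all 3 doses, which is 19.4% of the members and 1.74% of all genes. Some of these differences were small, as for HARS in C9 (−0.048 at 1 mM and −0.029 at 2 mM on the log2 scale). The counts include C7 against its own control, which was the highest control for 67.7% of the members and 28.6% of all genes. They were not repeated without C7. All comparisons share the 4 control libraries, so the doses are not separate evidence. Complete separation of metformin and control libraries was seen for CEBPG, MTHFD2, PSAT1 and YARS at 0.5 mM (0.638% of all genes were lower without overlap), for CTH and PSAT1 at 1 mM (1.12%) and for WARS1 at 2 mM (3.33%). No member was higher without overlap, where 0.353%, 1.9% and 3.78% of all genes were.

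**Figure D3:**
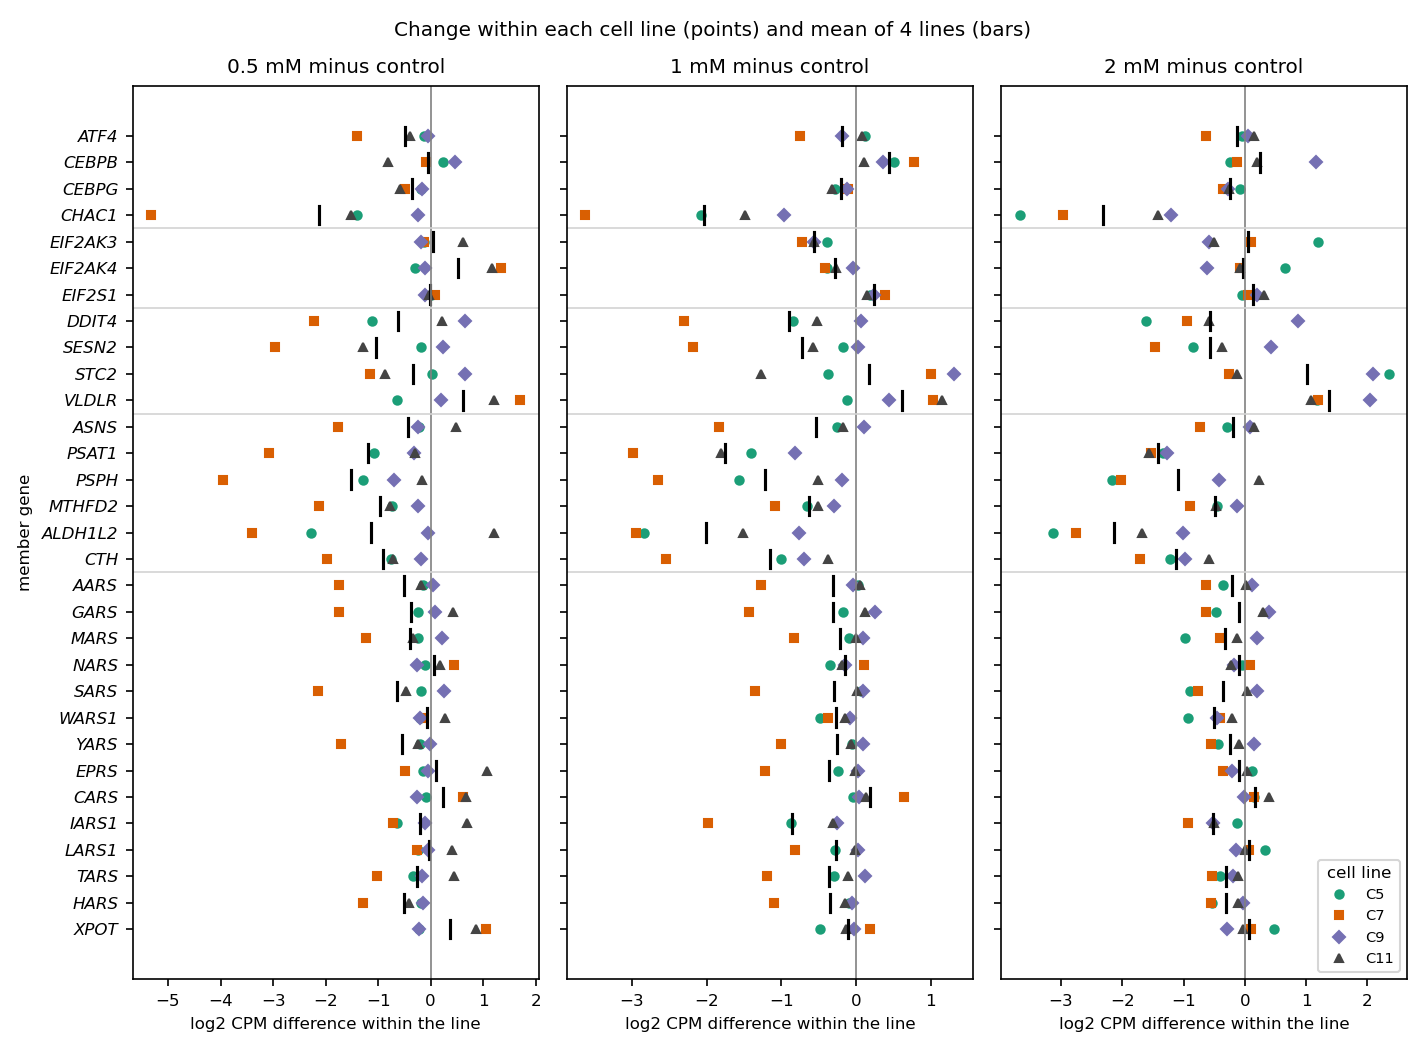
Difference of log2 CPM between each metformin library and the control of the same line, for 0.5, 1 and 2 mM (panels, left to right), with symbols for cell lines and black bars for the mean of 4 lines. CHAC1 and the enzymes PSAT1 to CTH lie furthest left, C7 squares lead at 0.5 mM, and VLDLR lies to the right in all 4 lines at 2 mM.

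ATF4 mRNA, whose protein drives the pathway, was highest in untreated C7. It measured 1141, 2857, 1238 and 1071 CPM in the controls of C5, C7, C9 and C11, and 1050, 1075, 1195 and 813 CPM at 0.5 mM. In the same order it was 1236, 1699, 1090 and 1135 CPM at 1 mM, and 1103, 1840, 1277 and 1184 CPM at 2 mM. Apart from untreated C7, and C7 at the upper doses, every library lay between 813 and 1277 CPM. In edgeR's test the log2 fold change at 2 mM was −0.24 (SE 0.37, adjusted p = 0.889), and without the control of C7 it was 0.20 (adjusted p = 0.901). ATF4 lies on chromosome 1 at 50599346 to 50602300 of the assembly GRCg6a.

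CHAC1 (chromosome 5, 24667321 to 24669438) had the largest difference at 0.5, 1 and 2 mM among the members in the fits with all controls. It measured 83.4, 497, 14.4 and 39.2 CPM in the controls of C5, C7, C9 and C11, and 31.7, 12.4, 12.2 and 13.8 CPM at 0.5 mM. At 1 mM it was 19.8, 40.4, 7.38 and 14.0 CPM, and at 2 mM 6.50, 63.5, 6.22 and 14.6 CPM. Each line was below its own control at each dose, but the groups overlapped at each dose. C5 at 0.5 and 1 mM, C11 at 2 mM and C7 at 1 and 2 mM lay above the C9 control. CHAC1 had a log2 fold change of −3.18 at 0.5 mM (SE 1.01, adjusted p = 0.955), −2.96 at 1 mM (adjusted p = 1.00) and −2.83 at 2 mM (adjusted p = 0.456). Without the control of C7 it was −1.39, −1.16 and −1.03 at these doses, and ALDH1L2 was then further below 0 at 1 and 2 mM (−1.57 and −1.61), as was PSAT1 at 1 mM (−1.34).

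Of the C/EBP factors, which pair with ATF4 on DNA, CEBPG was lower in all lines at all doses by a small amount. Its 0.5 mM libraries spanned 50.0 to 56.5 CPM and the controls 62.9 to 78.7 CPM, without overlap. The log2 fold change at 0.5 mM was −0.37 (SE 0.16, adjusted p = 0.955), and at 2 mM −0.25 (adjusted p = 0.657). CEBPB measured 435, 439, 504 and 868 CPM at 2 mM in C5, C7, C9 and C11, against 515, 480, 225 and 757 CPM in the controls. Its log2 fold change at 2 mM was 0.17 (SE 0.38, adjusted p = 0.927), with 2 lines on each side.

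The upstream genes of the pathway had estimates near 0 at 2 mM. EIF2S1 spanned 98.6 to 127 CPM at 2 mM and 94.9 to 114 CPM in the control, with a log2 fold change of 0.12 (SE 0.16, adjusted p = 0.863). EIF2AK3 was lower in all 4 lines at 1 mM, with 52.9, 51.9, 89.5 and 51.3 CPM in C5, C7, C9 and C11 against 69.5, 86.1, 132 and 75.7 CPM in the controls. The difference of −0.57 (SE 0.28) had adjusted p = 1.00 in edgeR's test. With the cell line as a replicate block and the length slope as a covariate, EIF2AK3 was called at 1 mM, as was PSAT1, where 1.76% of all genes were. Neither was called when the same terms were fitted to all 16 libraries (adjusted p = 0.205 and adjusted p = 0.0714). At 2 mM EIF2AK3 stood at 159 CPM in C5, above the 69.5 CPM of its control, and no common direction was left. EIF2AK4 measured 41.3, 13.0, 29.9 and 16.1 CPM at 2 mM, against 26.2, 13.8, 45.8 and 17.0 CPM in the controls, and its difference of −0.041 had an SE of 0.48.

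Among the growth arrest and secreted stress genes, VLDLR lay on the other side of its control from the biosynthetic enzymes. VLDLR (chromosome Z, 26557518 to 26572225) encodes a lipoprotein receptor that in laying hens carries yolk precursors into the oocyte, and in mammals it is an ATF4 target. It measured 139, 32.7, 82.1 and 63.5 CPM in the controls of C5, C7, C9 and C11, and 89.6, 107, 94.5 and 147 CPM at 0.5 mM. At 1 mM it was 127, 66.6, 111 and 141 CPM, and at 2 mM 314, 74.5, 336 and 134 CPM. Every line was above its own control at 2 mM, by 1.17, 1.19, 2.03 and 1.07 on the log2 scale in C5, C7, C9 and C11, while the groups overlapped. Its log2 fold change at 2 mM was 1.43 (SE 0.56, adjusted p = 0.418), and 1.14 without the control of C7 (adjusted p = 0.593).

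SESN2 and DDIT4, inhibitors of the growth kinase mTORC1, had high values in untreated C7 (483 and 444 CPM) and, for DDIT4, in untreated C5 (378 CPM). SESN2 measured 77.0, 175, 75.9 and 105 CPM at 2 mM, against 139, 483, 56.5 and 136 CPM in the controls of C5, C7, C9 and C11. C9 was above its control and the other lines below. The log2 fold change of SESN2 was −1.41 at 0.5 mM (SE 0.60, adjusted p = 0.955), where it was −0.53 without the control of C7, and −0.93 at 2 mM (adjusted p = 0.657), where it was −0.060 without that library. DDIT4 showed the same split, with −0.91 at 2 mM (SE 0.61, adjusted p = 0.665), and −0.52 without the control of C7. The DDIT4 gene shares 65 exonic bases with ANAPC16, and reads there count for both. STC2, which encodes a secreted glycoprotein, measured 12.0, 12.6, 20.6 and 13.5 CPM at 2 mM, against 2.35, 15.2, 4.84 and 14.8 CPM in the controls. Its C5 and C9 libraries were higher than their controls by 2.34 and 2.09 on the log2 scale, and C7 and C11 were near theirs (−0.26 and −0.13), giving 0.65 in the test (SE 0.56, adjusted p = 0.764).

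The biosynthetic enzymes were the group furthest below control, with a median log2 fold change of −1.26 at 0.5 mM, −1.68 at 1 mM and −1.40 at 2 mM over 6 genes. That median was −0.64, −0.59 and −0.38 without the control of C7. All 6 were below 0 at all 3 doses with and without that library. PSAT1 (chromosome Z, 37974730 to 37990032) makes phosphoserine in the serine pathway. It measured 36.3, 86.2, 23.2 and 26.3 CPM in the controls of C5, C7, C9 and C11, and 17.1, 10.1, 18.6 and 21.4 CPM at 0.5 mM. At 1 mM it was 13.7, 10.9, 13.2 and 7.52 CPM, and at 2 mM 14.4, 29.9, 9.65 and 8.85 CPM. All 0.5 and 1 mM libraries lay below all controls, and at 2 mM C7 overlapped the control range. Within lines the 2 mM differences were close together, at −1.33, −1.53, −1.26 and −1.57 in C5, C7, C9 and C11. In the test PSAT1 had a log2 fold change of −1.36 at 0.5 mM (adjusted p = 0.955), −1.93 at 1 mM (SE 0.45, adjusted p = 1.00) and −1.47 at 2 mM (SE 0.54, adjusted p = 0.396). Without the control of C7 it was −0.78 at 0.5 mM, −1.34 at 1 mM and −0.90 at 2 mM (adjusted p-values of 0.611 or more).

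CTH (chromosome 8, 29405130 to 29420571) had nearly equal control levels in C5, C9 and C11. It measured 34.7, 131, 34.1 and 32.3 CPM in the controls of C5, C7, C9 and C11, and 20.5, 33.6, 30.1 and 19.7 CPM at 0.5 mM. At 1 mM it was 17.3, 22.5, 21.0 and 24.9 CPM, and at 2 mM 14.8, 40.2, 17.3 and 21.7 CPM. The 1 mM libraries lay below all controls, and at 2 mM C7 alone reached the control range. For CTH the log2 fold change was −1.44 at 1 mM (SE 0.49, adjusted p = 1.00) and −1.32 at 2 mM (SE 0.55, adjusted p = 0.445). Without the control of C7 these were −0.66 and −0.55 (adjusted p = 0.999 and adjusted p = 0.716).

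ALDH1L2 and MTHFD2, enzymes of the mitochondrial folate cycle, had their lowest means at different doses. ALDH1L2 (chromosome 1, 54291424 to 54319655) measured 5.39, 13.5, 0.712 and 1.43 CPM in the controls, and 1.08, 1.26, 0.690 and 3.33 CPM at 0.5 mM, in C5, C7, C9 and C11. The same lines had 0.731, 1.73, 0.410 and 0.485 CPM at 1 mM, and 0.591, 1.98, 0.341 and 0.429 CPM at 2 mM. Its C5 and C9 libraries were lower at each higher dose, while C11 was highest at 0.5 mM. The estimate at 2 mM was −2.67 (SE 0.99, adjusted p = 0.398), and −1.61 without the control of C7 (adjusted p = 0.645). MTHFD2 had its lowest mean at 0.5 mM, with 39.6, 39.2, 46.9 and 37.3 CPM against 66.4, 170, 55.4 and 64.1 CPM in the controls. At 2 mM it measured 48.7, 91.8, 50.5 and 46.2 CPM. Its log2 fold change was −1.13 at 0.5 mM (SE 0.36, adjusted p = 0.955), or −0.61 without the control of C7, and −0.60 at 2 mM (adjusted p = 0.672), or −0.097 without it.

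PSPH and ASNS, the asparagine synthetase, did not have a common direction in the 4 lines at 2 mM. PSPH measured 3.73, 17.8, 2.91 and 5.95 CPM at 2 mM, against 16.9, 72.3, 3.89 and 5.04 CPM in the controls of C5, C7, C9 and C11, so that C11 was slightly above its control. Its log2 fold change was −2.41 at 0.5 mM (adjusted p = 0.955), or −0.90 without the control of C7, and −1.71 at 2 mM (SE 0.99, adjusted p = 0.601), or −0.20 without that control. ASNS measured 287, 293, 230 and 187 CPM at 2 mM, against 353, 484, 217 and 168 CPM in the controls. The estimate for ASNS at 2 mM was −0.31 (SE 0.34, adjusted p = 0.834), and −0.015 without the control of C7.

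**Figure D4:**
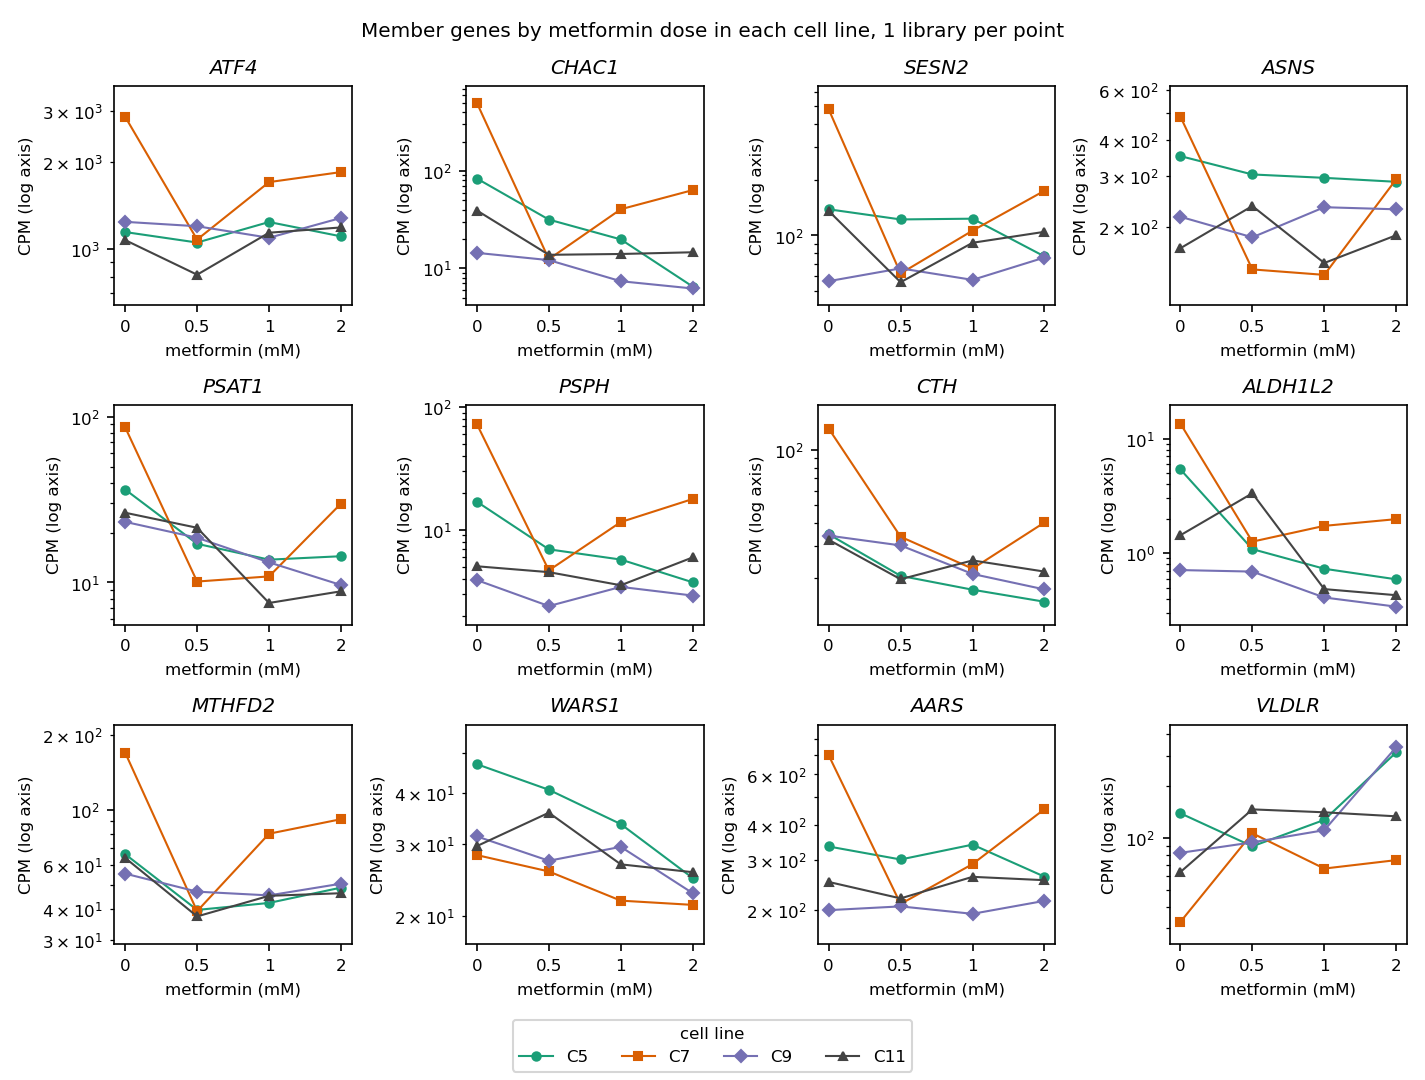
Levels of 12 genes by metformin dose (0, 0.5, 1 and 2 mM, equally spaced) in CPM on log axes, 1 line per cell line and 1 library per point. Untreated C7 is the highest point for ATF4, CHAC1, SESN2, ASNS, AARS and the serine, folate and cysteine enzymes, and the lowest for VLDLR and, among the controls, for WARS1.

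Among the 14 members of tRNA charging and export, WARS1, the tryptophanyl-tRNA synthetase (chromosome 5, 48761498 to 48777907), was the only one at p under 0.05 at 2 mM. It measured 46.9, 28.1, 31.2 and 29.6 CPM in the controls of C5, C7, C9 and C11, and 40.6, 25.6, 27.2 and 35.7 CPM at 0.5 mM. In the same order it was 33.5, 21.8, 29.5 and 26.7 CPM at 1 mM, and 24.7, 21.2, 22.7 and 25.5 CPM at 2 mM. The 2 mM libraries all lay below the controls and were close to each other (23.5 ± 1.95 CPM, SD, n = 4, against 34.0 ± 8.73 CPM). The estimate for WARS1 at 2 mM was −0.54 (SE 0.22, adjusted p = 0.445), and −0.64 without the control of C7 (adjusted p = 0.504). Unlike the estimates for CHAC1 and CTH, that for WARS1 was not nearer to 0 without untreated C7. It was nearer to 0 without untreated C5, the highest control for WARS1, at −0.37.

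The synthetases SARS, AARS, GARS, YARS, HARS and MARS were high in untreated C7 and lower there with metformin. AARS measured 302, 210, 206 and 220 CPM at 0.5 mM, against 335, 701, 200 and 251 CPM in the controls of C5, C7, C9 and C11. SARS measured 271, 161, 204 and 181 CPM at 0.5 mM, against 308, 713, 172 and 251 CPM in the controls. Outside C7 these differences lay between −0.47 and 0.25 on the log2 scale, and in C7 they were −1.74 for AARS and −2.15 for SARS. The log2 fold changes at 2 mM were −0.34 for AARS, −0.49 for SARS, −0.26 for GARS, −0.31 for YARS, −0.37 for HARS and −0.37 for MARS, with adjusted p-values between 0.765 and 0.892. The sign turned without untreated C7 for AARS (0.15), SARS (0.066), GARS (0.21) and YARS (0.094), while HARS was at −0.053 and MARS at −0.13. HARS was lower in every line at every dose, but it shares 771 exonic bases with DND1, whose reads cannot be told from its own.

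IARS1, the isoleucyl-tRNA synthetase, measured 57.0, 38.2, 106 and 52.9 CPM at 1 mM, against 105, 150, 125 and 65.3 CPM in the controls, a log2 fold change of −0.82 (SE 0.36, adjusted p = 1.00). At 2 mM it was −0.54 (adjusted p = 0.599), again lower in 4 of 4 lines. These were −0.65 and −0.39 without the control of C7. TARS was at −0.35, and EPRS, NARS, LARS1, CARS and XPOT lay between −0.12 and 0.14 at 2 mM. The 14 genes had a median of −0.33 at 2 mM, and 11 of them were below 0, where 49.4% of all genes were. With untreated C7 left out the median was −0.054 and 9 were below 0 (50.9% of all genes). Lower in every line at 2 mM were 4 of the 14 (TARS, WARS1, IARS1 and HARS), and 0 were higher in every line, against 16.9% and 19.2% of all genes.

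Over the 4 doses, a slope of log2 expression per mM was fitted for each gene. None of the 31 was called in the fit without the cell line (0.432% of all genes were). At p under 0.05, 5 had a negative slope (7.73% of all genes) and 1 a positive one (7.04%), and 24 of the 31 slopes were below 0 (49.5% of all genes). Past that threshold were ALDH1L2 at −1.26 per mM (SE 0.40, adjusted p = 0.146), CHAC1 at −1.24 (SE 0.48, adjusted p = 0.217), PSAT1 at −0.65 (SE 0.24, adjusted p = 0.208), CTH at −0.58 (SE 0.22, adjusted p = 0.214), WARS1 at −0.28 (SE 0.096, adjusted p = 0.175) and VLDLR at 0.69 (SE 0.20, adjusted p = 0.122). Leaving out line C5 gave WARS1 a slope of −0.19. The remaining 25 slopes had p above 0.05, among them ATF4 at −0.040 (SE 0.15) and STC2 at 0.44 (SE 0.32). With the control of C7 left out of this fit, a setting added after the data were seen, the slopes were −0.77 for ALDH1L2, −0.34 for CHAC1, −0.35 for PSAT1, −0.22 for CTH, −0.31 for WARS1 and 0.60 for VLDLR. Then 15 of the 31 slopes were below 0 (49.6% of all genes), 0 members were called (0.181% of all genes were), and at p under 0.05 ALDH1L2 and WARS1 were negative and VLDLR positive (7.35% and 7.53% of all genes).

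With the cell line as a replicate block, which compares each library with others of its hen, 2 members were called: ALDH1L2 fell by 1.19 per mM (SE 0.31, adjusted p = 0.0418) and WARS1 fell by 0.26 (SE 0.069, adjusted p = 0.0452), where 4.96% of all genes were called. At p under 0.05, 5 slopes were negative and 2 positive in that fit (10.2% and 11.3% of all genes). VLDLR had 0.64 (adjusted p = 0.0502), CHAC1 −1.07 (adjusted p = 0.0699), CTH −0.52 (adjusted p = 0.0792) and PSAT1 −0.67 (adjusted p = 0.102) in the same edgeR fit. With the line C7 left out of that fit, a choice made after the data were seen, CHAC1, CTH, PSAT1 and WARS1 fell and VLDLR rose (5 of 31, 16.1%, against 8.45% of all genes). Their slopes were then −0.97, −0.44, −0.70, −0.29 and 0.73 per mM, with adjusted p-values from 0.0219 to 0.0456. ALDH1L2 had −1.18 and adjusted p = 0.0513. With the control of C7 alone left out of the block fit, 0 members were called, where 3.03% of all genes were. DESeq2 without the block called ALDH1L2 and VLDLR (3.59% of all genes), and gave CTH no p-value. When the length slope of each library was added to the block, ALDH1L2, CHAC1, CTH and WARS1 fell and VLDLR rose (16.1% of the members and 16.1% of all genes), and PSAT1 had adjusted p = 0.0796. The share called was then no higher among the members than among all genes.

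**Figure D5:**
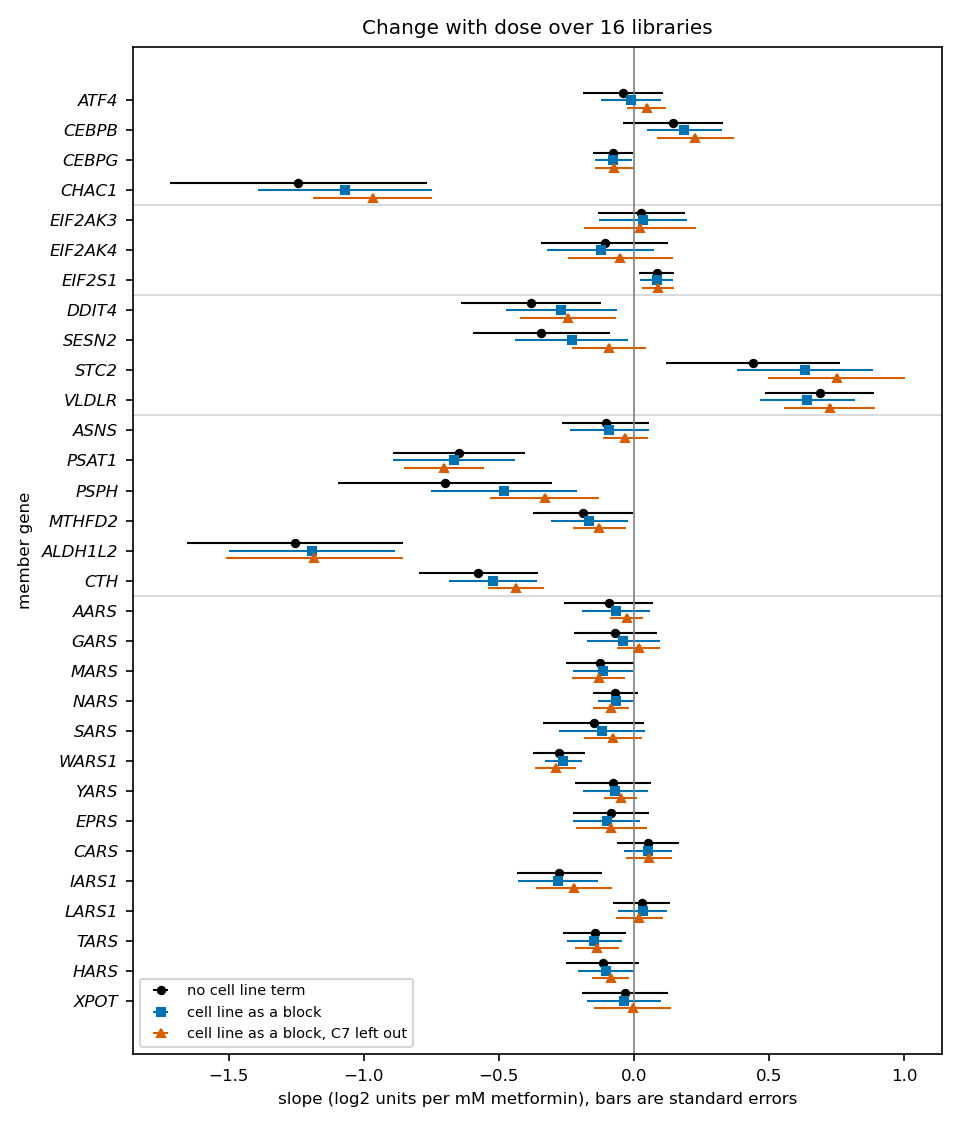
Slope of log2 expression per mM metformin for the 31 genes, with standard errors, in 3 edgeR fits: without the cell line, with it as a block, and with it as a block after C7 was left out. CHAC1, PSAT1, ALDH1L2, CTH and WARS1 lie left of 0 in all 3 fits, VLDLR lies right of it, and ATF4 lies close to 0.

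Differences between the 4 lines, with the dose as a factor, were called for CHAC1 (adjusted p = 0.0320), PSPH (adjusted p = 0.0242), MTHFD2 (adjusted p = 0.0367) and CTH (adjusted p = 0.0489, edgeR). That is 4 of 31 members (12.9%), where 14.9% of all genes were called. Libraries of 1 line share 1 hen, so these p-values measure the spread between treatments of 1 culture. At p under 0.05 the lines differed for 18 members (58.1%, against 42.3% of all genes). PSPH was highest in C7 at 0, 1 and 2 mM and MTHFD2 likewise, while at 0.5 mM C5 was highest for PSPH and C9 for MTHFD2. Without the control of C7, 0 members were called (9.44% of all genes), and with all of C7 left out AARS, ASNS and DDIT4 were called instead (15.9%). Without C9 or without C11, 0 were called (2.44% and 5.14%). With the length slope as a covariate, ATF4, CTH, MTHFD2 and WARS1 were called and CHAC1 and PSPH were not (22% of all genes). Whether the dose slope differed between lines was tested as an interaction, and 0 members were called, or had p under 0.05, where 1.69% of all genes had. All 31 had adjusted p = 1 (edgeR), and the alternatives run called 0 as well.

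The dose at which each line had its extreme is given as a description. In C7, 21 of 31 members were highest in the control (67.7%, against 27.6% of all genes) and 15 were lowest at 0.5 mM (against 26.6% of all genes). In C5, 18 were highest in the control (58.1%, against 19.8%) and 17 were lowest at 2 mM (against 38% of all genes). C9 had 14 members highest in the control (45.2%, against 24.7%). In C11 only 10 were (32.3%, against 20.2%), and 15 were highest at 0.5 mM (48.4%, against 37.9%). The length slope changed sign within lines, being positive in C7 and C11 at 0.5 mM (0.18 and 0.12) and in C5 at 2 mM (0.24) and negative in the remaining libraries of these lines, and its part in these patterns was not tested. The summed fibroblast markers spanned 29073 to 60428 CPM at 2 mM and 52759 to 105086 CPM in the control, and the T cell markers 94.8 to 136 CPM and 114 to 228 CPM. Their part in the 2 mM differences was not tested either. Of the 11 T cell marker rows, 7 averaged under 1 CPM, CD4 and CD8A among them, whereas CD3D, CD3E and CD247 averaged 1.88, 3.36 and 3.87 CPM and LCK 128 CPM.

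Genes outside the list but on the same pathway were read by the same tests. Of 8 other cytosolic tRNA synthetases and scaffold genes with a row, all 8 were below 0 at 2 mM (median −0.36, where 49.4% of all genes were below 0), 2 of them at p under 0.05 (5.61% of all genes) and 0 called (0%). Without the control of C7, 6 were below 0 (50.9% of all genes), 2 at p under 0.05 (4.61%), and the median was −0.20. FARSB, a phenylalanyl-tRNA synthetase subunit, measured 23.4, 29.8, 25.3 and 20.5 CPM at 2 mM, against 41.9, 54.8, 43.4 and 38.6 CPM in the controls, without overlap, as for 3.33% of all genes (−0.86, SE 0.21, adjusted p = 0.285, and −0.77 without the control of C7). DARS was at −0.58 (adjusted p = 0.352), QARS at −0.71 (adjusted p = 0.653) and FARSA at −0.51 (adjusted p = 0.672), and without that control they were at −0.61, −0.18 and −0.28. The 13 mitochondrial synthetases were split, with 3 lower and 2 higher at p under 0.05 at 2 mM (5.61% and 5% of all genes, median −0.19). YARS2 rose with dose by 0.38 per mM (adjusted p = 0.0420, where 0.432% of all genes were called), or 0.36 and not called without the control of C7 (adjusted p = 0.0630), at 19.6, 21.1, 23.1 and 27.8 CPM at 2 mM against 14.8, 12.6, 14.6 and 12.7 CPM in the controls. RARS2 had a slope of −0.40 per mM (adjusted p = 0.0934), NARS2 −0.34 and EARS2 −0.32. With the replicate block FARSB fell by 0.41 per mM (adjusted p = 0.0176), DARS fell by 0.28 (adjusted p = 0.0468) and RARS2 fell by 0.40 (adjusted p = 0.0495), while YARS2 rose by 0.37 (adjusted p = 0.0190), in a fit that called 4.96% of all genes.

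Of 28 further ATF4 target genes with a row, 5 were lower and 2 higher at p under 0.05 at 2 mM (5.61% and 5% of all genes), 0 were called (0%), and the median was −0.15. The lists share genes. NARS2 and CARS2 are also among the mitochondrial synthetases, and SHMT1 and MTHFD1L among the serine and folate enzymes. NARS2, lower at p under 0.05 at 2 mM, is thus counted in both of its lists. Without the control of C7, 1 was lower and 3 higher (4.61% and 4.24%), and the median was −0.076. The amino acid transporters SLC7A5 and SLC7A1 were at −1.60 (adjusted p = 0.392) and −0.96 (adjusted p = 0.336), and PYCR1, of proline synthesis, at −1.81 (SE 0.83, adjusted p = 0.491). SLC7A5 and PYCR1 were highest in untreated C7 as well, at 240 and 323 CPM, and without that library they were at −0.96 and −0.77, with SLC7A1 at −0.77. TMEM154 was at 2.05 (SE 0.60, adjusted p = 0.326), and rose by 1.17 per mM in the block fit (adjusted p = 0.00983). The block fit called 4.96% of all genes. Of 17 other genes of the eIF2 machinery, 0 were called at any dose (0% of all genes), and 0 had p under 0.05. Of all genes, 0.743% were lower and 0.353% higher by that measure at 0.5 mM. The shares were 1.66% and 3.11% at 1 mM, and 5.61% and 5% at 2 mM, so few of 17 genes would pass at such shares. EIF2B4, a subunit of the exchange factor eIF2B, was the furthest from 0 at 2 mM, at −0.45 (adjusted p = 0.545). EIF2S3 (−0.36), PPP1CA (−0.37) and PPP1CB (0.42) followed in size. Of 9 genes of the mitochondrial stress relay and unfolded protein response, HSPD1, a mitochondrial chaperonin, was higher at p under 0.05 at 2 mM (0.56, adjusted p = 0.386), where 5% of all genes were. HSPD1 rose by 0.29 per mM in the block fit (adjusted p = 0.0170). OMA1, YME1L1 and TRAP1 were at −0.57, 0.45 and −0.32 at 2 mM. Of 14 other serine, folate and transsulfuration enzymes tested, 1 was lower at p under 0.05 at 2 mM, where 5.61% of all genes were. It was SRR, the serine racemase (−1.45, SE 0.39, adjusted p = 0.310), which fell by 0.69 per mM in the block fit (adjusted p = 0.0214). SHMT1, MTR and MTHFD1L were at −0.84, −0.54 and −0.47 at 2 mM.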

How the data were processed

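Per the labels and the study's methods, total RNA of 16 cultures was sequenced as reads of 75 bases. Bases were called with bcl2fastq 2.20.0, and the authors aligned the single-end reads to GRCg6a with HISAT2 2.1.0. FeatureCounts then assigned reads to exons on the matching strand, and a read over several genes counted for each. Triplicate wells may stand behind a library. The deposited table holds these raw counts per gene and library, and gene length as an other column. Deposited tables of the authors' comparisons (fold changes, p-values and normalized counts) were not used.

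Libraries were grouped by dose and line from their labels. Each dose was compared with control on 8 libraries by edgeR 4.0.16 (R 4.3.3, limma 3.58.1, quasi-likelihood test, two-sided, TMM, filterByExpr, Benjamini-Hochberg), without the cell line; slopes, line differences and the interaction used all 16. Called genes had p under 0.01 and adjusted p under 0.05. Standard errors were derived from the F statistic. CPM on the log2 scale used a prior count of 1. The length slope was fitted on the 10632 genes whose counts averaged 100 or more. In fits without the cell line, p-values measure the spread between lines, with differences between single cultures and libraries included. With the replicate block, for line differences and for the interaction, they measure the spread between treatments within lines. Counting error alone is small for most members at 34724071 to 42531887 counts per library. It is larger for members with low counts, as ALDH1L2 (13 in its lowest library), STC2 (57) and PSPH (97). Fits were run on simulated counts. For the dose tests these held no differences between lines or in length slope, so the check does not cover those features. Of all genes, 10393 have no symbol.

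Cell line paired the libraries, as lines came from different hens. Deviations from the dose means had a median correlation of 0.532 between libraries of 1 line (24 pairs, 19 over 0.1). Between lines it was −0.146 (72 pairs, 17 over 0.1). Subtracting the dose means itself pushes the values between lines below 0, so −0.146 is not separate support for the pairing.

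Named were all members found, at most 4 genes of each other pathway list by their absolute log2 fold change at 2 mM, and the highest and lowest marker of a list. EPCAM and CD4 were picked afterwards, and CDH1, KRT18, CD3D, CD3E and CD247 were also named outside this rule. The members and lists were chosen with earlier results of these data known. Alternatives were DESeq2 1.42.0, RLE normalization, no filter, the replicate block, the length slope, all 16 libraries in 1 fit, and each line or library left out. Promoter motifs were not analysed here.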

Additional observations from a re-analysis of the deposited data

Results flagged for a closer look

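In 21 of the 124 groups of 4 libraries looked at (31 genes at 4 doses), 1 cell line lay apart from the other 3. The gap was above Dixon's 95% critical value, which chance alone passes in about 1 in 20 for independent, normally distributed values. The groups share libraries and are not independent, so the 21 are a description and not a test. In the control group, C7 was apart on the high side for ATF4 (2857 CPM, next 1238), CHAC1 (497 CPM, next 83.4), MTHFD2 (170 CPM, next 66.4), CTH (131 CPM, next 34.7) and YARS (330 CPM, next 149). C5 was high for WARS1 (46.9 CPM) and C11 low for EPRS (146 CPM) among the controls.

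At 0.5 mM, C5 was high for CHAC1 (31.7 CPM), EIF2S1 (114 CPM), SESN2 (122 CPM) and AARS (302 CPM), C11 low for CEBPG (50.0 CPM) and C7 low for TARS (46.4 CPM). At 1 mM, C7 was high for MTHFD2 (80.2 CPM), and C9 was low for CEBPB (288 CPM) and high for EIF2AK3 (89.5 CPM) and XPOT (109 CPM). At 2 mM, C7 was high for CHAC1 (63.5 CPM), MTHFD2 (91.8 CPM) and ALDH1L2 (1.98 CPM), and C11 for CEBPB (868 CPM). C7 thus accounted for 10 of the 21, and MTHFD2 was apart in C7 at 0, 1 and 2 mM.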

How the results depend on the processing

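Calls of members depended on the cell line term and the length slope. At 1 mM 0 were called (0% of all genes), but 1 with DESeq2 (0.159%). The replicate block and length slope called 2 (1.76%), and over all 16 libraries 1 (0.177%). At 2 mM 0 were called (0%), but 4 with the replicate block and length slope on 8 libraries (5.43%) and 4 on 16 (10.3%). For the dose slope 0 were called (0.432%), but 2 with DESeq2 (3.59%) and 2 with the replicate block (4.96%). The block and length slope called 5 (16.1%), as did the block with line C7 left out (8.45%). For differences between lines 4 were called (14.9%), but 13 with DESeq2 (23.8%). Leaving out libraries gave 0 calls at each dose and for the slope, and 0 to 5 for the lines. The 5 came without C5, where 19.9% of all genes were called.

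Members lower at p under 0.05 numbered 7 at 0.5 mM (0.743% of all genes), but 2 with the replicate block (0.616%). They numbered 1 with the block and length slope and 3 with the block and C7 left out. Over the leave-outs they numbered 1 (without C7) to 14 (without the control of C9). At 1 mM they numbered 5 (1.66% of all genes), but 8 with the replicate block (6.46%) and 15 with the block and length slope. They numbered 11 with these terms on 16 libraries (9.21%), 10 with the block and C7 left out, and 2 to 8 over the leave-outs. At 2 mM they numbered 5 (5.61% of all genes), but 8 with the block and length slope. Over the leave-outs they numbered 0 to 7, with 0 where C5, or C9 at 2 mM, was missing. For the slope they numbered 5 (7.73% of all genes), but 3 with the block and the C7 control left out, and 2 to 5 over the leave-outs. RLE normalization and no filter kept each of these counts within 1.5 times. For most leave-outs, and for the other fits given without a share, the share of all genes was not counted. Those counts cannot be set against all genes, so their changes are not read as results about the members.

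Of 470 fold changes and slopes of single genes under the alternatives, 439 kept their direction and side of the threshold, 25 became calls and 6 turned round, all of ATF4. ATF4's log2 fold change at 2 mM was 0.20 without the control of C7, with a range of −0.44 to 0.20 over the leave-outs. Its slope per mM was 0.025 with the block and length slope, 0.044 without C7, 0.11 with the block and the C7 control left out, 0.047 with the block and C7 left out, and 0.16 without the C7 control, with −0.084 to 0.16 over the leave-outs. For the slope and lines, leaving out the C7 control alone, and every fit that leaves out C7 with the block, were chosen after seeing the data. The values counted above cover ATF4 and, in each comparison, the members past its threshold. Of the others at 2 mM without the control of C7, AARS, SARS, GARS and YARS turned positive (0.15, 0.066, 0.21 and 0.094) and CARS and XPOT negative (−0.041 and −0.15). The cause of these shifts was not tested. With 4 hens and 1 library per hen and dose, a member's change has no replicate within a hen, and low counts limit ALDH1L2.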
